A study of Mus musculus with 6 samples.

Results

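The measurements concern Trp53, which encodes p53, its widely used target genes Mdm2, Cdkn1a, Ccng1, Btg2, Bax and Gdf15, and the 3 Gadd45 genes, in mouse liver and liver tumour. All 10 genes were on the array with 1 probe each, among 9925 named genes on 20868 probes. A probe belonged to a gene when its accession or the symbol in its description gave that gene. For 9 of the 10 the accession did so, and the Cdkn1a probe was named from the words of its description, which spell out the gene's name. The older symbol in that description is shared with another gene, so each Cdkn1a value rests on those words.

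All RNA was total RNA of liver or liver tumour from mice aged 39 weeks on the C3H/HeNCrlBR (C3He) background, and every group had received the carcinogen DEN (diethylnitrosamine), which starts liver tumours. The 4 conditions were wild-type (WT) liver after DEN and PB, liver of CAR-KO mice after DEN and PB, liver of CAR-KO mice after DEN without PB, and tumour of WT mice after DEN and PB. PB is phenobarbital, given in the drinking water, which promotes liver tumours through the nuclear receptor CAR (gene Nr1i3), and CAR-KO mice lack that receptor. Every comparison in the design therefore has CAR-KO liver on one side, and no mouse without DEN was measured. The labels do not say how the knockout was made, how many animals gave each RNA, or whether RNA was pooled. The 6 Agilent 2-colour arrays formed 3 pairs with the dyes swapped, and each ratio was turned so that a positive log2 value means the first-named condition was brighter. Nothing in the labels tells if 1 pair of RNA extracts was put on both of its arrays, so p-values measure only the spread from array to array, which may be technical.

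p53 is a transcription factor that is held at a low level by MDM2, the ubiquitin ligase that marks it for degradation, and that is released by DNA damage and other stress. It then raises genes that stop the cell cycle, such as Cdkn1a, and genes that favour apoptosis, such as Bax, and it raises its own inhibitor Mdm2. The Gadd45 genes encode small acidic proteins that bind PCNA, cyclin B with CDK1, and the kinase MAP3K4 of the p38 and JNK pathways. Gadd45a is a p53 target, whereas Gadd45b is best known as a target of NF-kB and, in liver, as a gene raised early by activators of CAR. Messenger RNA levels do not measure p53 activity directly, since p53 itself is controlled mainly as a protein.

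As a check of the genotype, the Nr1i3 probe had a log2 ratio of 0.79 ± 0.16 (SE) in WT over CAR-KO liver (limma adjusted p = 0.414) and of 1.81 ± 0.16 in WT tumour over CAR-KO liver (limma adjusted p = 0.00197). Where that probe lies relative to the deleted part is not given in the sources used here. All 4 hepatocyte markers with a probe (Ttr, Apoa1, Hnf4a and Cyp2e1) were well above background in all 12 channels. Array 2 of the tumour pair was read with another version of the image software per its file header, 7.5.1 against 7.1.1. Its median local background was 288 in Cy3 and 299 in Cy5, against 53 to 62 on the other 5 arrays. The share of spots well above background ranged from 84.4% to 98.7% over the channels. Across the tested probes, the turned ratios of both arrays of a pair correlated at r = 0.0294 for WT liver over CAR-KO liver, -0.347 for PB in CAR-KO liver and 0.391 for tumour over CAR-KO liver, which is across probes that share arrays. With a dye effect per probe removed these values were 0.217, 0.169 and 0.647. That effect was fitted on these same arrays, and its removal alone makes r positive even for arrays with unrelated noise. A positive r after removal is therefore no sign by itself that the arrays of a pair agree.

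WT tumour over CAR-KO liver was the comparison in which p53 targets were called. Ccng1 rose 1.93-fold and Gdf15 rose 2.03-fold, and 9 of the 10 genes had a fitted ratio above 0, as did 49.4% of tested probes. The calls were 2 of 10 higher and 0 of 10 lower, where over all tested probes 2.53% were called higher and 0.839% lower. A call is a limma p under 0.05 after Benjamini-Hochberg adjustment across the 20744 tested probes. An unadjusted limma p was under 0.05 for 6 of the 10 genes, beside 23.4% of all tested probes. The median log2 ratio of the 10 genes was 0.56, and that of all tested probes was -0.0057. Both arrays were above 0 for 6 of the 10 genes, as for 30.6% of tested probes. Genotype and tissue state both differ between these groups, so their parts cannot be told apart here.

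Ccng1 encodes cyclin G1, a p53 target that acts with MDM2 and the phosphatase PP2A. Its log2 ratios in tumour over CAR-KO liver were 1.24 on array 1 and 0.66 on array 2. The fit gave 0.95 ± 0.17 (SE, 2 arrays), a 1.93-fold higher signal, and a limma adjusted p of 0.0298. By channel, its log2 normalized intensity was 7.75 and 7.93 in tumour, 7.34 and 7.30 in WT liver, and 7.12 and 7.32 in CAR-KO liver after DEN alone. In CAR-KO liver given DEN and PB the 6 channels ran from 6.51 through a median of 7.14 to 7.27. The low end of that range was the CAR-KO channel of tumour array 1, on which the larger of both ratios was measured. Both tumour channels lay above every other channel of this probe.

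Gdf15 encodes a secreted stress cytokine that p53 raises and that the ATF4 and CHOP stress pathway raises as well. Its log2 ratios in tumour over CAR-KO liver were 0.61 on array 1 and 1.43 on array 2. The fit gave 1.02 ± 0.19 (SE, 2 arrays), a 2.03-fold higher signal, and a limma adjusted p of 0.0335. Its log2 intensity was 8.20 and 8.30 in tumour, 7.48 and 7.43 in WT liver, 7.07 and 6.88 in CAR-KO liver after DEN alone, and 6.87 to 7.58 (median 7.18) in the 6 channels of CAR-KO liver given DEN and PB. Of those 6, the CAR-KO channel of tumour array 2, the array with the larger ratio, was the lowest, and that of tumour array 1 was the highest. In the lowest channel the mean signal of Gdf15 was 397. The median local background there was 299 and the median signal of all probe spots was 418, so the larger ratio rests on a dim channel. The tumour channels again lay above every other channel of the probe. The size of each call rested on which array was used. Without tumour array 2, Ccng1 was at 1.13 (limma adjusted p = 0.00491) and Gdf15 at 0.64 (limma adjusted p = 0.0545), and without tumour array 1, Ccng1 was at 0.77 (limma adjusted p = 0.114) and Gdf15 at 1.41 (limma adjusted p = 0.00299). The count of 2 called genes became 0 under each of 7 other processing settings and without any 1 of the 4 arrays outside the tumour pair, and 5 with median centring of each array.

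**Figure D1:**
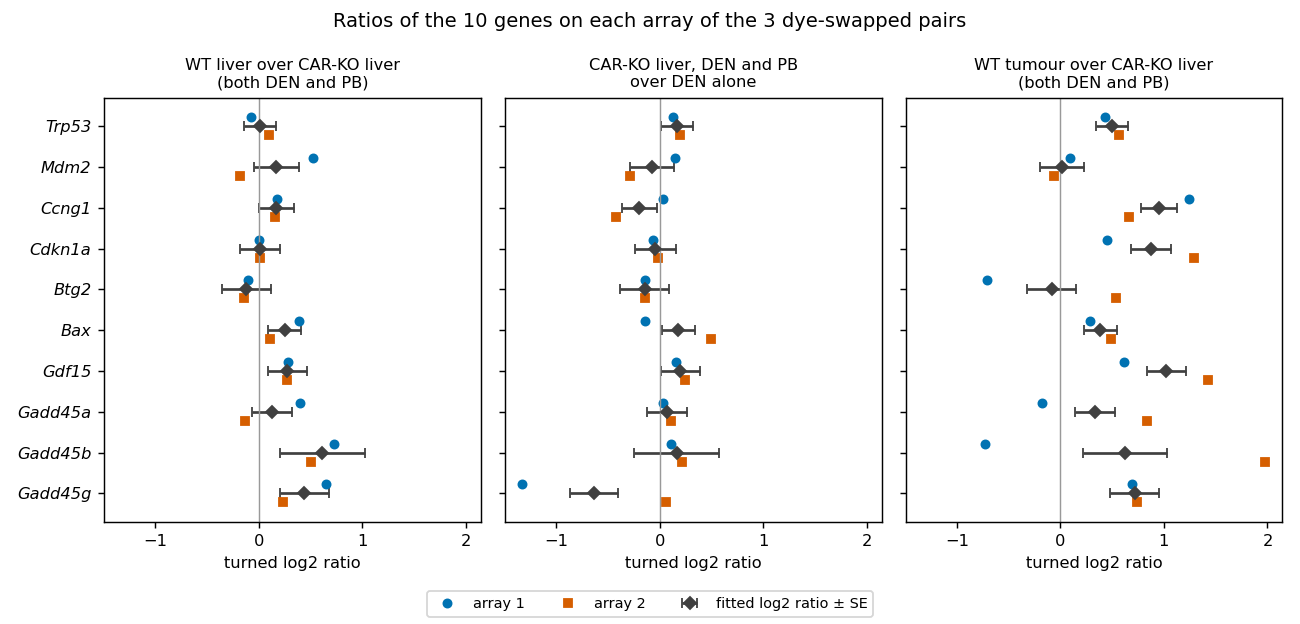
Turned log2 ratios (x axis) of the 10 genes (y axis) in the 3 direct comparisons. Circles and squares are arrays 1 and 2 of each dye-swapped pair, and diamonds with bars are the fitted ratio ± SE. In the tumour panel Ccng1 (0.95) and Gdf15 (1.02) were called, and the arrays of Gadd45b lay at -0.73 and 1.98.

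Cdkn1a encodes p21, the cyclin-dependent kinase inhibitor through which p53 stops the cell cycle. Its log2 ratios in tumour over CAR-KO liver were 0.45 and 1.30, and the fitted 0.87 ± 0.19 (95% interval 0.42 to 1.33) missed the threshold at a limma adjusted p of 0.0597. Its tumour channels, at 7.82 and 7.87, lay above WT liver (7.47 and 7.43) and above the highest of the 6 channels of CAR-KO liver given DEN and PB (6.57 to 7.47, median 7.29). The low end of that range was the CAR-KO channel of tumour array 2, on which the larger of both ratios was measured. That channel was dim, with a mean signal of 361 where the median local background was 299. Without tumour array 1 the ratio was 1.28 (limma adjusted p = 0.00558), and without tumour array 2 it was 0.47.

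Trp53 itself had log2 ratios of 0.43 and 0.57, and a fitted ratio of 0.50 ± 0.16 (95% interval 0.14 to 0.86, limma adjusted p = 0.129). Its tumour channels (7.56 and 7.30) overlapped those of CAR-KO liver given DEN and PB (6.74 to 7.52, median 7.17). Bax, a pore-forming member of the BCL2 family that promotes apoptosis, was at 0.28 and 0.49, fitted at 0.39 ± 0.16 (95% interval 0.01 to 0.76, limma adjusted p = 0.206). Mdm2 was close to even, with 0.10 on array 1 and -0.07 on array 2, a fitted ratio of 0.02 ± 0.21 and a 95% interval of -0.48 to 0.52. Btg2, an antiproliferative p53 target, was at -0.70 on array 1 and 0.54 on array 2, fitted at -0.08 ± 0.24 (95% interval -0.64 to 0.47). The arrays thus disagreed in sign for Btg2, which without tumour array 2 was at -0.69 and past the threshold as lower (limma adjusted p = 0.0394).

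The p53 target genes differ in the letters next to their start sites, and 4 windows are shown because they hold the called genes, the gene nearest to the threshold, and the inhibitor of p53 that stayed near even. Each line gives the 250 bases before a RefSeq start of the gene (build GRCm38.p6), read 5′ to 3′ on the gene's strand, with matches to the p53 half-site consensus in capitals.
Ccng1, chr11:40755287-40755536, minus strand: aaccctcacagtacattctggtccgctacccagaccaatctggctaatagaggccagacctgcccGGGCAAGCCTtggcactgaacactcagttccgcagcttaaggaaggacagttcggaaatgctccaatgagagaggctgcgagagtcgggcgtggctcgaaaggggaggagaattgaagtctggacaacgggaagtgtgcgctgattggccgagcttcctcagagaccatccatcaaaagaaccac
Gdf15, chr8:70632457-70632706, minus strand: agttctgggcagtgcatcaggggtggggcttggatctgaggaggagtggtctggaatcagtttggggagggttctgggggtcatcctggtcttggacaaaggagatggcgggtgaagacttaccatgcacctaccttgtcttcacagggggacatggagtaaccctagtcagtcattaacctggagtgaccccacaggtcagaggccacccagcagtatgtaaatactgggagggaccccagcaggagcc
Cdkn1a, chr17:29090729-29090978, plus strand: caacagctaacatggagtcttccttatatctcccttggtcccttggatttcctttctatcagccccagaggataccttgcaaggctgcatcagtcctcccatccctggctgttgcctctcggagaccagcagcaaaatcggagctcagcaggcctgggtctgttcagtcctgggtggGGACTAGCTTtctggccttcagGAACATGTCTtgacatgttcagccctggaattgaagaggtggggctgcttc
Mdm2, chr10:117710759-117711008, minus strand: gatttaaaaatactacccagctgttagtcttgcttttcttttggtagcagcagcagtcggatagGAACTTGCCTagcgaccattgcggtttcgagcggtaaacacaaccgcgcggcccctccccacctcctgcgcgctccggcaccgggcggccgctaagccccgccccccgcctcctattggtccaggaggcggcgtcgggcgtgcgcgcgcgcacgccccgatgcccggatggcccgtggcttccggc
The p53 half-site consensus is a palindrome of 10 bases, so both strands give the same matches. In windows of 250 bases before to 50 bases after the start, it was found in 2745 of 32851 windows (8.36%) and, counted by gene, in a window of 2582 of 27025 genes (9.55%) and of 6 of the 10 genes here, namely Trp53, Mdm2, Ccng1, Cdkn1a, Bax and Gadd45a. The Cdkn1a window shown has 2 matches with a gap of 12 bases, and 24 of all windows (0.0731%) hold 2 matches 0 to 13 bases apart. Only exact matches were counted. Directly after GAACATGTCT in that window lie the bases tgacatgttc, which miss the consensus by their first base alone. Cdkn1a and Gdf15 each have a second annotated start, and neither Gdf15 window nor the other Cdkn1a window has a match. No match was found in these windows of Btg2, Gadd45b or Gadd45g. Sites farther away or inside introns lie outside these windows, and the arrays did not measure binding of p53.

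The 3 Gadd45 genes were each above 0 in tumour over CAR-KO liver, and none was called. Gadd45g had log2 ratios of 0.69 and 0.74 and a fitted ratio of 0.72 ± 0.23 (95% interval 0.17 to 1.26, limma adjusted p = 0.139). With the fitted dye effect removed, its arrays stood further apart, at 1.0 and 0.43. Without tumour array 1 the Gadd45g ratio was 0.29 (limma adjusted p = 0.77), and without tumour array 2 it was 1.14 (limma adjusted p = 0.011), past the threshold. Its tumour channels, at 9.03 and 9.39, lay above the 6 channels of CAR-KO liver given DEN and PB (8.20 to 8.64, median 8.33). WT liver was at 8.92 and 8.43, the lower value inside that range, and CAR-KO liver after DEN alone was split, at 9.66 and 8.27. Gadd45a had -0.18 on array 1 and 0.84 on array 2, fitted at 0.33 ± 0.19 (95% interval -0.12 to 0.78, limma adjusted p = 0.333).

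Gadd45b had the widest disagreement of all 10 genes, with -0.73 on array 1 and 1.98 on array 2. The fitted 0.62 ± 0.41 (95% interval -0.33 to 1.58) had a limma adjusted p of 0.389. Its tumour channels were 7.44 and 7.93, both above WT liver at 6.71 and 6.63, which was measured on other arrays. The difference between the fitted ratios of tumour and of WT liver to CAR-KO liver was only 0.01 (95% interval -1.34 to 1.36). The CAR-KO channel on tumour array 1 stood at 8.17, whereas the other 5 channels of the same condition lay between 5.95 and 6.37. Left to 1 array, the ratio was 1.90 without array 1 (limma adjusted p = 0.000361) and -0.65 without array 2 (limma adjusted p = 0.0507). Its fitted dye effect, -0.51, was also the largest of the 10 genes in size. Gadd45b was not flagged as well above background in 3 of the 12 channels, none of them in the tumour pair. Yet on tumour array 2 its CAR-KO channel had a mean signal of 318, where the median local background in Cy5 was 299. The ratio of 1.98 thus rests on a channel close to background. This was not particular to Gadd45b, since the same channel read 361 for Cdkn1a, 397 for Gdf15 and 446 for Ccng1.

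**Figure D2:**
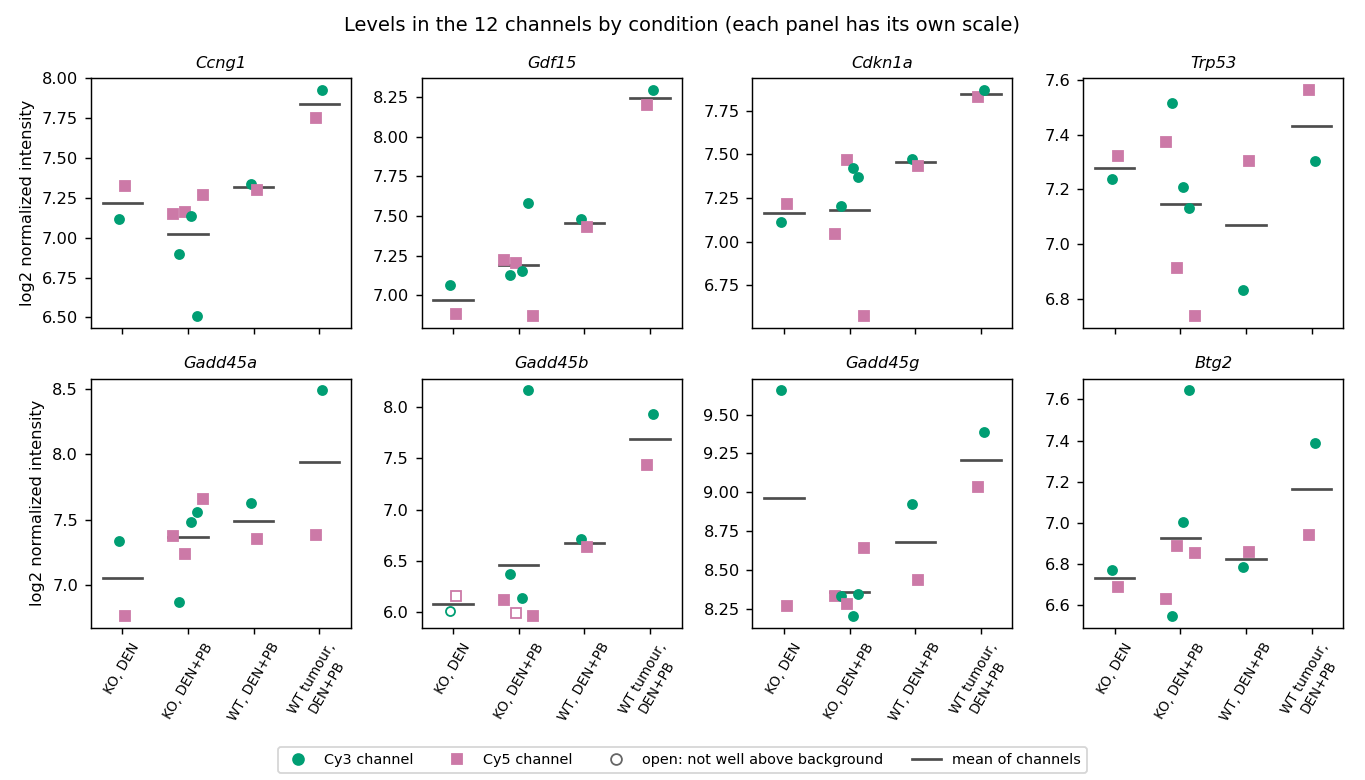
Log2 normalized intensity (y axis) of 8 of the 10 genes in the 12 channels, grouped by condition (x axis), with a scale of its own in each panel. Circles are Cy3, squares Cy5, open symbols were not well above background, and lines are means over channels. For Ccng1, Gdf15 and Cdkn1a both tumour channels lie above all others, and for Gadd45b 1 CAR-KO channel lies at 8.17.

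Whether tumour differed from WT liver was asked indirectly, as the difference between their ratios to CAR-KO liver. Of the 10 genes, 0 were called, where 0% of all tested probes were called and 8.36% had an unadjusted p under 0.05. The difference was above 0 for 9 of the 10 genes, as for 49.1% of tested probes, and 3 of the 10 had an unadjusted limma p under 0.05. These 3 were Cdkn1a at 0.87 ± 0.27 (95% interval 0.23 to 1.51), Ccng1 at 0.78 ± 0.24 (95% interval 0.22 to 1.35) and Gdf15 at 0.75 ± 0.27 (95% interval 0.12 to 1.37). Their limma adjusted p-values were 0.549, 0.535 and 0.585. Trp53 was at 0.49 ± 0.22 (limma adjusted p = 0.597). Gadd45b was at 0.01 with a 95% interval of -1.34 to 1.36, so a difference in either direction was not detectable with these arrays.

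The comparison of WT liver over CAR-KO liver, with DEN and PB given to both, asks what differs with CAR present in liver that is not tumour. Of the 10 genes 0 were called, beside 0.0916% of all tested probes, and 0 had an unadjusted limma p under 0.05, beside 2.27% of all tested probes. The fitted ratio was above 0 for 9 of the 10 genes, as for 45.1% of tested probes, with a median of 0.17 against -0.02. Gadd45b had 0.72 and 0.50 on the arrays and a fitted 0.61 ± 0.41 (95% interval -0.34 to 1.57), or 0.22 and 1.01 on the arrays with the dye effect removed. The Gadd45b ratio ranged from 0.019 without array 2 of this pair to 2.07 in the software's own log ratio, and it was not called in any of the 16 alternatives. On array 1 its CAR-KO channel was not well above background. Gadd45g was at 0.65 and 0.23, fitted at 0.44 ± 0.23 (95% interval -0.11 to 0.99). Gdf15 was at 0.28 and 0.27, fitted at 0.28 ± 0.19, and Bax was at 0.39 and 0.11, fitted at 0.25 ± 0.16.

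Cdkn1a was near 0 on both arrays of that comparison, with 0.0013 and 0.011 on the arrays, fitted at 0.0064 with a 95% interval of -0.45 to 0.46. Trp53 was at 0.0097 (95% interval -0.35 to 0.37). Mdm2 was at 0.52 on array 1 and -0.18 on array 2, fitted at 0.17 (95% interval -0.33 to 0.67). Mdm2 has been described as a gene that responds to CAR, and the interval leaves room for a change of either sign. Ccng1 was at 0.17 (95% interval -0.23 to 0.57), Gadd45a at 0.13 (95% interval -0.32 to 0.58), and Btg2, the 1 gene below 0, at -0.12 (95% interval -0.67 to 0.43). The WT liver and tumour comparisons share CAR-KO liver given DEN and PB as their control, so the values of a gene in both are not independent.

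PB in CAR-KO liver, against DEN alone, asks what PB does without the receptor. Of the 10 genes 0 were called, beside 0% of all tested probes, and 1 had an unadjusted limma p under 0.05, beside 2.73% of all tested probes. The ratio was above 0 for 5 genes, as for 47.7% of tested probes, and below 0 for 5, with a median of 0.017. That gene was Gadd45g, at -1.33 on array 1 and 0.07 on array 2, fitted at -0.63 ± 0.23 (95% interval -1.18 to -0.09), and far from the threshold after adjustment. On array 1 the DEN-alone channel of Gadd45g stood at 9.66, and on array 2 at 8.27. Summed levels of the 4 hepatocyte markers differed between the same channels. In CAR-KO liver after DEN alone they were 20806 on array 1 and 6775 on array 2, against 16118 to 21186 after DEN and PB. A sum is weighted to its brightest probes, and by gene the list was split. The fitted ratios in this comparison were 1.19 for Apoa1, 0.74 for Cyp2e1, -0.03 for Hnf4a and -0.07 for Ttr. Whether the spread of Gadd45g goes with the makeup of the RNA was not tested.

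The other genes ranged from -0.20 for Ccng1 to 0.20 for Gdf15 under PB without CAR. Trp53 was at 0.13 and 0.20 on the arrays, and Gdf15 at 0.16 and 0.25. Mdm2 was at 0.15 and -0.29, and Cdkn1a at -0.07 and -0.01, with a 95% interval of -0.49 to 0.41 for Cdkn1a. Gadd45b was not well above background in either DEN-alone channel. Its mean log2 level there was 6.08, and that after DEN and PB in the same pair was 6.24, a fitted log2 ratio of 0.16 with a 95% interval of -0.79 to 1.12, so neither direction was resolved.

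Around the 10 genes, 9 lists of related genes with 115 measured genes were counted in the tumour comparison, with 10 genes called higher and 1 lower, beside 2.53% and 0.839% of all tested probes. Of the regulators of p53, 0 of 14 were called, 9 were above 0, and their median was 0.13. The highest were Trp53inp1, whose product promotes p53 phosphorylation, at 0.82 ± 0.17 (limma adjusted p = 0.0529), and Atr, a kinase of the DNA damage checkpoint, at 0.70 ± 0.23. Of other p53 targets in arrest and growth, 0 of 14 were called and 11 were above 0, with a median of 0.33. There Ddit4, an inhibitor of mTOR signalling, was at 0.75 ± 0.18 (limma adjusted p = 0.071) and Plk3, a stress-activated kinase, at 0.68 ± 0.18, while Epha2 was at -0.28 ± 0.23 and Rprm, named after its values were seen, at -0.39 ± 0.20.

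Of 22 apoptosis genes listed for the p53 pathway, 1 was called, 16 were above 0, and the median was 0.13. This list is wider than direct p53 targets, and it holds Bcl2 at 0.08, Bcl2l1 at 0.21 and Tnfrsf1a at -0.02. The called gene was Casp1, the inflammasome protease, at 0.60 and 1.70 on the arrays and 1.15 ± 0.20 in the fit (limma adjusted p = 0.0267). Phlda3, a p53-induced inhibitor of AKT, was at 0.83 ± 0.18 (limma adjusted p = 0.0543). Aen, a nuclease, was lowest at -0.94 ± 0.26, and Perp, a membrane protein of cell junctions, was at -0.48 ± 0.16. Of the repair and metabolism targets, 1 of 12 was called, and the median of 0.02 was near that of all probes. The called gene was Ephx1, microsomal epoxide hydrolase, at 1.02 and 2.31 on the arrays and 1.66 ± 0.22 in the fit (limma adjusted p = 0.00942). Ephx1 is a drug-metabolising enzyme that PB raises through CAR, and so is not known for p53 alone.

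Of the partners of the Gadd45 proteins and the p38 and JNK kinases, 1 of 12 was called, with a median of 0.12. That gene was Jun, a transcription factor downstream of JNK, at 1.03 and 1.92 on the arrays and 1.47 ± 0.23 in the fit (limma adjusted p = 0.0183). Map2k7, the JNK kinase that the GADD45B protein binds, was at -0.31 ± 0.16, and Apex1, a base excision repair enzyme, at 0.52 ± 0.16. Of 12 NF-kB and TNF targets 1 was called, the chemokine gene Ccl2, at 0.96 ± 0.16 (limma adjusted p = 0.0211), and Cxcl1 was at -0.43 ± 0.17. Of 12 stress genes of the ATF4 and CHOP arm, 1 was called higher and 1 lower, 8 were above 0 and 4 below, and the median was 0.22. Atf4 itself was at -0.19 ± 0.17. Trib3, a pseudokinase induced by both factors, rose at 1.06 ± 0.16 (limma adjusted p = 0.0164). Herpud1, a gene of endoplasmic reticulum protein degradation, fell at -0.78 ± 0.15 (limma adjusted p = 0.0395).

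Of 6 CDK inhibitors other than Cdkn1a, 0 were called, and the highest was Cdkn2c at 0.65 ± 0.17 with a list median of -0.14. Of 16 proliferation genes, 5 were called higher, 14 were above 0, and the median was 0.68. The kinase gene Plk1 was at 1.23 ± 0.16 (limma adjusted p = 0.00833), the helicase genes Mcm6 at 1.18 ± 0.17 and Mcm4 at 1.08 ± 0.15, and Rrm2, a subunit of ribonucleotide reductase, at 1.14 ± 0.17. The 5th called gene was Mcm7 at 1.01 ± 0.15, named after its values were seen. In WT liver over CAR-KO liver and under PB in CAR-KO liver, 0 genes of these 9 lists were called. Among the genes of the lists above 0 in WT liver over CAR-KO liver, Ephx1 was at 0.86, Ddit4 at 0.39, Jun at 0.42, Trib3 at 0.42 and the cyclin gene Ccnd1 at 0.62. Below 0 were, among others, Chac1 of the ATF4 and CHOP list at -1.01 ± 0.28 (-0.27 and -1.75 on the arrays) and Perp at -0.48 ± 0.16. None of these genes was past the threshold.

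**Figure D3:**
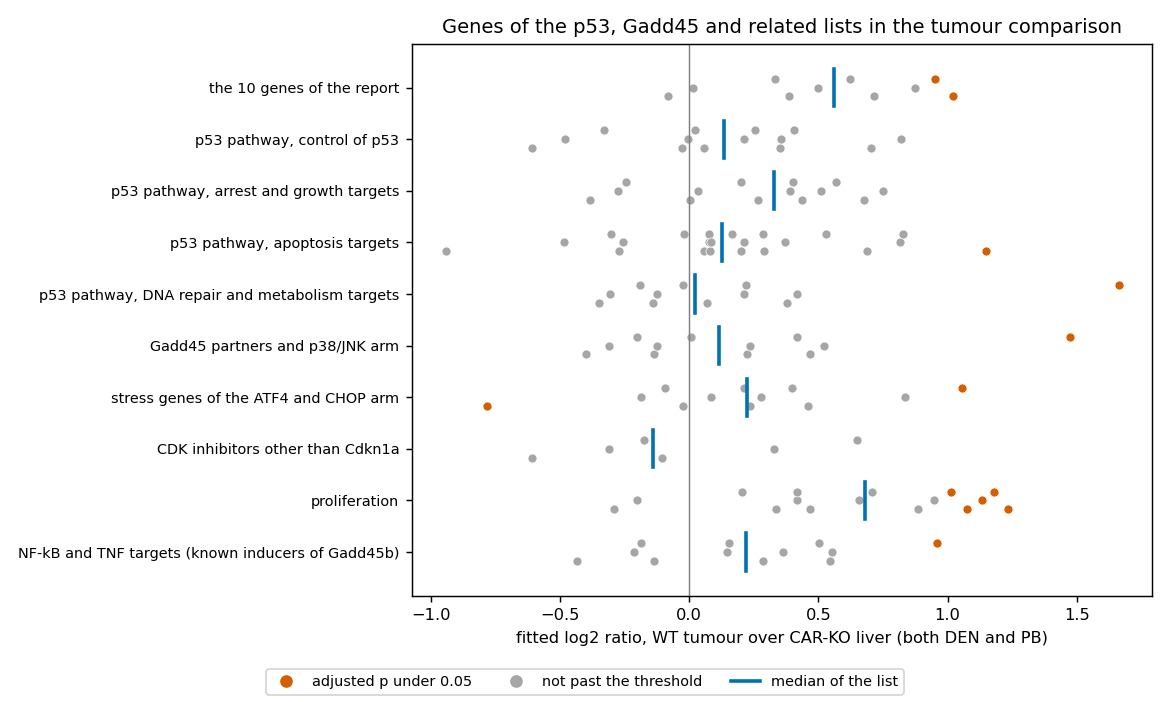
Fitted log2 ratios of WT tumour over CAR-KO liver (x axis) for the 10 genes and for each measured gene of 9 related lists (y axis). Points are genes, coloured where the limma adjusted p was under 0.05, and vertical bars are list medians. The median was 0.56 for the 10 genes and 0.68 for proliferation, and -0.14 for the other CDK inhibitors.

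Over the 6 ratios with the dye effect removed, the named probes nearest to Ccng1 by Euclidean distance were Chaf1b, a histone chaperone subunit, at 0.196, Atpif1, the inhibitor of mitochondrial ATP synthase, at 0.207, and Zfyve19 at 0.212, out of 9937 candidates. Those nearest to Gdf15 were Auh, a mitochondrial hydratase, at 0.123, Htatip2 at 0.194 and Zbp1, a sensor of nucleic acids, at 0.211. All 6 had tumour ratios between 0.90 and 1.05, which follows from choosing them by a distance that includes the tumour ratios.

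Markers of other cell types moved in the tumour comparison too. The summed level of 3 measured erythroid markers was 4897 to 5453 in tumour channels against 9262 to 11276 in CAR-KO liver given DEN and PB, and Hba-a1 fell at -1.09 ± 0.16 (limma adjusted p = 0.0139). Of 4 cholangiocyte markers 1 was called, Krt19, at 1.13 ± 0.16 (limma adjusted p = 0.0136), while the list's summed level was 724 to 771 in tumour and 674 to 813 in CAR-KO liver. The 6 macrophage markers summed to 3124 to 3327 in tumour and 2577 to 2924 in CAR-KO liver, with 0 called. The 4 skeletal muscle markers summed to 376 to 438 in tumour, 424 to 461 in WT liver and 444 to 474 in CAR-KO liver after DEN alone. In CAR-KO liver given DEN and PB, which is in every direct comparison, they summed to 704 to 1130. Of these 4, 2 were called lower in tumour, and 1, Tnnc2, also in WT liver over CAR-KO liver at -1.78 ± 0.15 (limma adjusted p = 0.00753). The part of these cells in the ratios of Ccng1, Gdf15 and the other genes was not tested. In RNA of whole tissue, fewer cells of a type and less RNA per cell cannot be told apart.

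The tumour ratios of the 10 genes kept their sign for 8 genes when the background correction, the within-array or the between-array normalization was changed, the exceptions being Mdm2 and Btg2. Trp53, Ccng1, Cdkn1a, Bax, Gdf15 and Gadd45g were above 0 in each of those settings and with either tumour array left out. The size moved with the setting. Ccng1 was at 0.61 without background subtraction and at 1.37 in the software's own log ratio, and Gdf15 at 0.61 and 1.34.

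**Figure D4:**
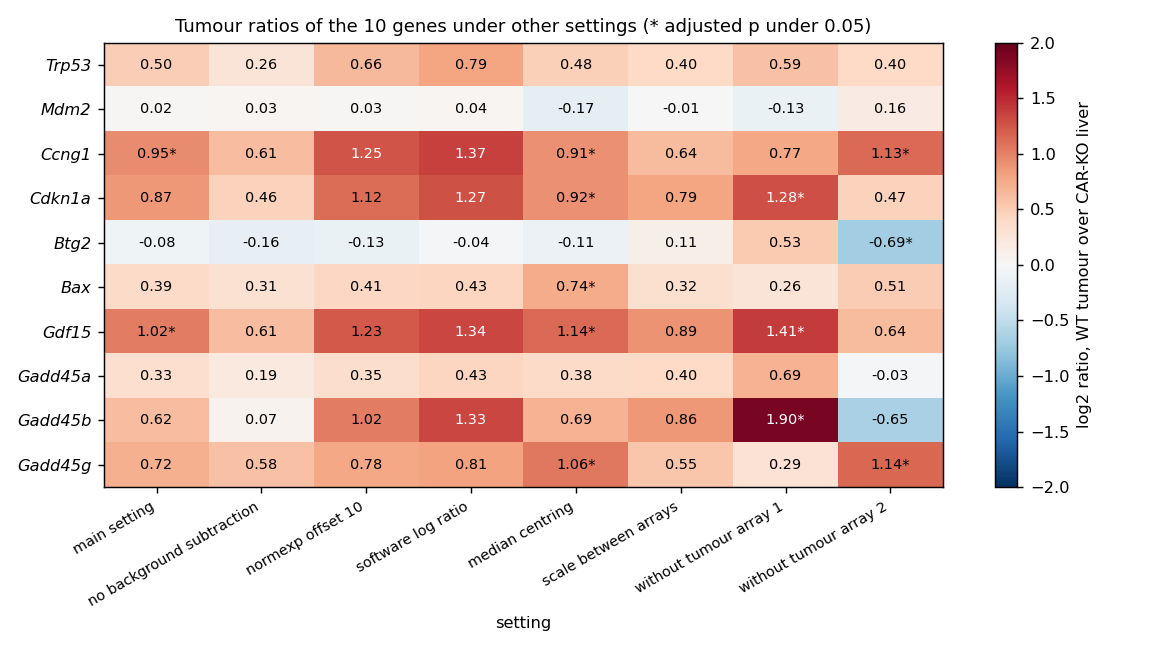
Log2 ratio of WT tumour over CAR-KO liver (colour and printed value) for the 10 genes (rows) under the main setting and 7 others (columns). An asterisk marks a limma adjusted p under 0.05. Ccng1 and Gdf15 stay above 0 in every column, and Gadd45b turns from 1.90 without tumour array 1 to -0.65 without tumour array 2.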

How the data were processed

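Agilent Feature Extraction made all the deposited files, at version 7.1.1 on 5 arrays and 7.5.1 on array 2 of the tumour pair per the file headers, while the submitters' processing notes name 7.5. The deposited mean signals and local background medians are unnormalized intensity values, and the deposited processed signals are intensity values that the software background-subtracted and dye-normalized. The deposited ratio is the log10 of Cy5 over Cy3, and the deposited value table holds the same log10 ratios (largest difference 0). Spot flags were used as deposited.

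Probes were named by accession, a symbol in the description or an older symbol through RefSeq's table. Signals were corrected with normexp (offset 50), control spots got weight 0 in loess within each array, outlier spots were set to missing and spots of a probe averaged. limma 3.58.1 (R 4.3.3) fitted log2 ratios of all 6 arrays with 3 contrasts plus a per-probe dye effect (2 residual and 5.46 prior degrees of freedom). Probes bright over background in 1 or both channels of 2 or more arrays were tested. Tests were 2-sided, and the fit was tested on simulated data. Levels per channel were scaled between arrays (Aquantile). In lists the brightest probe stands for a gene.

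All genes in the set were named in every comparison. From each list were named up to 4 called genes and the 2 highest and 2 lowest genes well above background with the same sign on both arrays, or fewer of these, and for each called gene its 3 nearest probes. The genes and lists were chosen with earlier results of these data known. Alternatives changed the background correction, normalization, dye effect, array weights, filter, moderation, arrays and probe choice.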

Additional observations from a re-analysis of the deposited data

Results flagged for a closer look

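Among the 6 channels of CAR-KO liver with DEN and PB, Gadd45b had a log2 level of 8.17 in the Cy3 channel of array 1 of the tumour pair. The nearest other channel was at 6.37 and the lowest at 5.95, so that the gap was 0.812 of the whole range, past Dixon's 95% critical value for 6 values. Gadd45g had a log2 level of 8.64 in the Cy5 channel of array 2 of the tumour pair, with the nearest other channel at 8.34 and the lowest at 8.20, a gap of 0.675 of the range. The levels of all 10 genes were examined this way, and chance alone marks about 1 group in 20.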

How the results depend on the processing

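In tumour over CAR-KO liver, the 2 genes called higher became 0 without background subtraction, with normexp offset 10, with the software's processed log ratio, with scale normalization between arrays, without the dye effect, with array weights and with the arrays of the pair alone. With median centring 5 were called (Bax, Ccng1, Cdkn1a, Gadd45g and Gdf15), and over all probes the split moved from 524 higher and 174 lower to 2375 higher and 1781 lower. Leaving out 1 array at a time gave 0 to 3 called higher and 0 to 1 called lower, and in the indirect comparison 0 to 2 higher and 0 to 1 lower. Leaving out an array of another pair leaves 1 residual degree of freedom fewer, and the tumour ratio itself does not change. With the software's log ratio and with scale normalization, 0 probes of the whole array were called in tumour over CAR-KO liver, and with the arrays of the pair alone 53 higher and 9 lower.

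Of the genes in the 9 lists, 10 were called higher and 1 lower in that comparison. The higher count was 6 without background subtraction, 3 with offset 10, 0 with the software's log ratio, 34 with median centring, 0 with scale normalization, 5 without the dye effect, 2 with array weights, 23 with a variance trend and robust moderation, 0 with the pair alone, and 2 to 22 with 1 array left out. The lower count was 0 with offset 10, the software's log ratio, scale normalization, no dye effect, array weights and the pair alone, 5 with median centring, 3 with a variance trend and robust moderation, and 0 to 11 with 1 array left out. In the indirect comparison the higher count was 0, or 1 with a variance trend and robust moderation and 0 to 5 with 1 array left out, and the lower count was 0 to 6 with 1 array left out.

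These single values changed sign, none of them called. In tumour over CAR-KO liver Mdm2 was at -0.17 with median centring and at -0.011 with scale normalization, and Btg2 at 0.11 with scale normalization. In WT liver over CAR-KO liver Cdkn1a was at -0.017 with the software's log ratio and at -0.033 with median centring, and Trp53 at -0.055 with the software's log ratio. Under PB in CAR-KO liver Gadd45b was at -0.054 with median centring. In the indirect comparison Btg2 was at -0.074 without background subtraction, and Gadd45b at -0.32 without background subtraction, -0.23 with offset 10 and -0.74 with the software's log ratio.

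With 1 array left out, ranges crossed 0 as follows. In tumour over CAR-KO liver they were -0.025 to 0.69 for Gadd45a, -0.13 to 0.16 for Mdm2, -0.65 to 1.90 for Gadd45b and -0.69 to 0.53 for Btg2. In the indirect comparison they were -0.57 to 0.65 for Btg2, -0.15 to 0.70 for Gadd45g, -0.15 to 0.56 for Gadd45a, -1.26 to 1.29 for Gadd45b and -0.65 to 0.35 for Mdm2. In WT liver over CAR-KO liver they were -0.41 to 0.17 for Btg2, -0.22 to 0.23 for Cdkn1a, -0.10 to 0.44 for Ccng1, -0.13 to 0.15 for Trp53 and -0.33 to 0.67 for Mdm2. Under PB in CAR-KO liver they were -0.22 to 0.14 for Cdkn1a, -0.46 to 0.18 for Btg2, -0.42 to 0.28 for Mdm2, -0.52 to 0.85 for Gadd45b, -0.27 to 0.42 for Gadd45a and -0.016 to 0.37 for Bax. The cause of these changes was not tested. Each log ratio already pairs both conditions within an array, and no replicate block was added because the labels give no replicate numbers. Gadd45b is the 1 gene here that failed a filter of both channels well above background on all 6 arrays, and the number of arrays limits the precision of every value.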
